A study of Mus musculus with 7 samples.

Results

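The genes described here are 8 mouse genes of antiviral defence, namely Ifih1, Ddx58, Zbp1, Samhd1, Samd9l, Ifi44, Parp12 and Zc3hav1. They were taken by symbol from the deposited count table. Each of the 8 symbols matched 1 of the 20343 complete rows, and all 8 were among the 7667 genes that passed the filter on low counts. The study measured polyadenylated RNA by sequencing in the apical myocardium of NSG-DR1 mice. This strain is severely immunodeficient, lacks mature mouse T, B and natural killer cells, and carries a human HLA-DR1 transgene (strain label NSG-DRB1*0101), so that it can host human T cells. The 4 control hearts came from mice that were left untreated. The 3 transferred hearts came from mice of the same strain, taken 6 weeks after they had been given human CD4+ T cells. The labels used here do not give the age or sex of the mice, and the control mice received no other cells, so that transfer of CD4+ T cells and transfer of any human cells cannot be told apart. The labels do not state that each library is a separate mouse, although every library carries its own animal identifier, so p-values measure the spread between libraries.

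Cells recognise invading or misplaced nucleic acid with sensor proteins in the cytosol. Ddx58 encodes RIG-I and Ifih1 encodes MDA5, which are RNA helicases that bind double-stranded RNA and signal through the mitochondrial adaptor MAVS to the transcription factors IRF3 and IRF7, which switch on interferon genes. Zbp1 encodes a sensor of Z-form nucleic acid that can start inflammatory cell death. The other genes act further downstream. Samhd1 encodes a phosphohydrolase that lowers the pool of deoxynucleotides, Zc3hav1 encodes the zinc-finger antiviral protein ZAP that binds CpG-rich RNA, Parp12 encodes a mono-ADP-ribosyltransferase with zinc fingers of the same kind, Samd9l encodes an antiviral factor with a sterile alpha motif, and Ifi44 is a gene long known for its induction by interferon. All 8 are known as interferon-stimulated genes. Secreted type I interferon acts through its receptor on short promoter elements that contain repeats of GAAA.

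The stretches of DNA just before the starts of these genes are shown because they carry, or lack, the letters of that element. RefSeq promoter windows of build GRCm38.p6, reaching from 250 bases before to 50 bases after the start, were found for 7 of the 8 genes. Zbp1 had no window, and that of Zc3hav1 was built on a start 749 bases inside the gene as RefSeq lists it, so its stretch is not printed. Each line gives the 60 bases before the start, 5′ to 3′ on the strand of the gene, with every match to the 8 letters AANNGAAA or their reverse complement TTTCNNTT in capitals. Overlapping matches run together.
Ifih1: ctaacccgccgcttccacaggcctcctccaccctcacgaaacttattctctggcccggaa
Ddx58: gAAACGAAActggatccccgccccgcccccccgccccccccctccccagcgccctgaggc
Samhd1: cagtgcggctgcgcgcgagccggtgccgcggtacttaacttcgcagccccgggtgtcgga
Samd9l: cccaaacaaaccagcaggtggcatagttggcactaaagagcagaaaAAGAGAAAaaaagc
Ifi44: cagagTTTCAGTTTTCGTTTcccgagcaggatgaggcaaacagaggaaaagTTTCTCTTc
Parp12: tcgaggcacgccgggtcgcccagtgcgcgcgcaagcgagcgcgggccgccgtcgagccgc

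These stretches lie at chr2:62646256-62646315 for Ifih1, chr4:40239826-40239885 for Ddx58, chr2:157135097-157135156 for Samhd1, chr6:3399572-3399631 for Samd9l, chr3:151749911-151749970 for Ifi44 and chr6:39118350-39118409 for Parp12, all on the minus strand. In the full windows of 300 bases, Ifih1, Ddx58, Samd9l and Ifi44 held the 8 letters at least once, and Samhd1 and Parp12 did not. The window of Zc3hav1 did not hold them either, but it does not cover the bases before the first base of the listed gene. Over all 32851 windows in the table, 23.9% held them. Those letters were chosen after the windows had been read. The stricter 10 letters of the interferon-stimulated response element, GAAANNGAAA or TTTCNNTTTC, were present in the windows of Ifih1 and Ddx58 and in 3.44% of all windows. In both genes that match lay just after the start, and it contains a match to the 8 letters. The 30 bases that hold it are shown with the 8-letter matches in capitals, at chr2:62646214-62646243 for Ifih1 and chr4:40239814-40239843 for Ddx58. In Ifih1 the 10 letters read GAAACAGAAA and begin 32 bases after the start, and in Ddx58 they read TTTCGATTTC and begin 2 bases after it.
Ifih1: aaagtctggagaagagAATCGAAACAGAAA
Ddx58: tccccagcgccctgaggcagTTTCGATTtc

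The gamma-activated site, searched as TTCNNNGAA, was present in the window of Samhd1 and in 8.3% of all windows. A match describes letters in a window of fixed size and does not show that a factor bound there.

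Over the analysed part of the table, which covers chromosomes 1 to 7 and the start of chromosome 8, the libraries held 16402194 to 25190580 counts. A count of 3 corresponded to 0.115 to 0.189 counts-per-million (CPM) there, a floor for counting error alone, because amplified copies of one molecule cannot be recognised. CPM values are scaled by the TMM method of edgeR to this part of the table. Cardiomyocyte markers, among them Ttn and Tnni3, summed to 94572 to 113084 CPM in control hearts and 91398 to 113798 CPM in transferred hearts, so the defining markers of the labelled tissue were abundant in all 7 libraries.

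All 8 genes had higher mean levels in transferred hearts, from 1.25-fold for Samhd1 and 1.26-fold for Zc3hav1 to 10.1-fold for Zbp1. In the edgeR quasi-likelihood test, 0 of the 8 passed the threshold of 0.05 after Benjamini-Hochberg adjustment over all tested genes, where 0.235% of genes passed. All 8 had an unadjusted p-value under 0.05 and a positive log2 fold change, against 7.17% of all tested genes. DESeq2, another count test, called 5 of the 8 higher (Ifih1, Ddx58, Zbp1, Samd9l and Parp12) at an adjusted p-value under 0.05, against 2.48% of all genes. limma-voom called 0 of the 8 and 0 of all genes, with 7 of the 8 higher at an unadjusted p-value under 0.05, against 6.7% of all genes. The median log2 fold change was 0.74 over the 8 genes and -0.002 over all tested genes. The genes were chosen with earlier results of these data known, so these counts describe them and are not independent evidence. In bulk tissue, more cells of a kind that expresses a gene and more RNA per cell cannot be told apart.

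**Figure D1:**
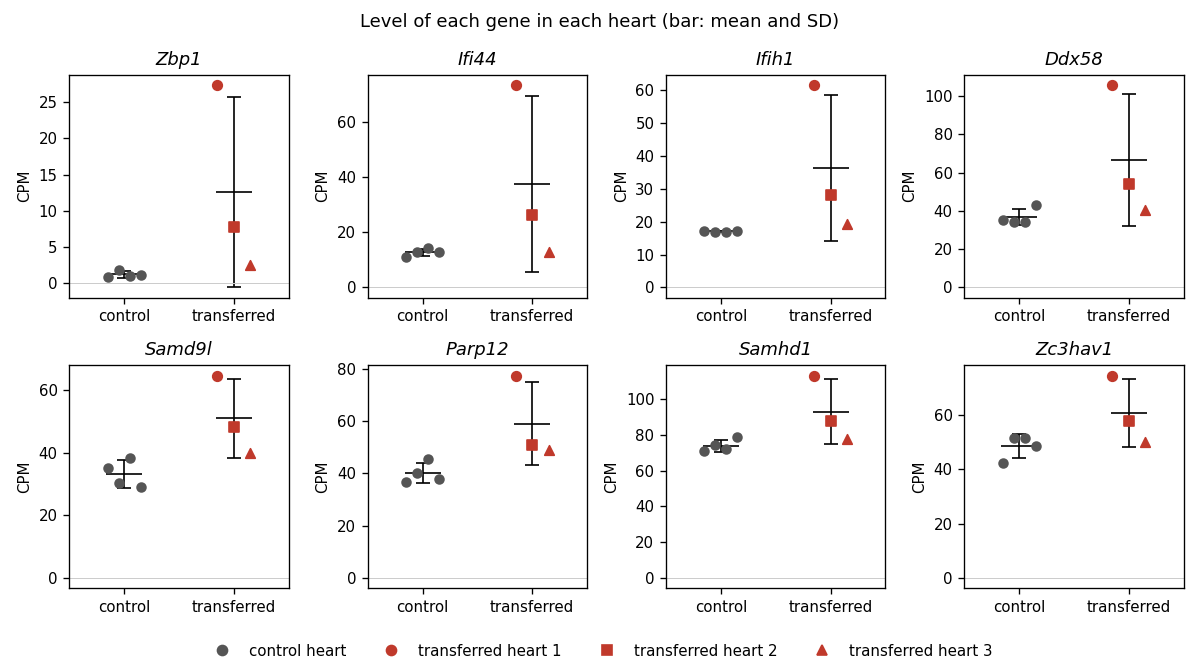
Level of each of the 8 genes in each heart, in CPM, with group means and SD (4 control and 3 transferred hearts). Transferred heart 1 is the highest of the 7 hearts in every panel, and transferred heart 3 lies within or close to the control range, as for Ifi44 at 12.8 CPM.

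Of the RNA helicases, Ifih1 (chromosome 2, 62595618 to 62646255) stood at 17.2, 16.8, 16.97 and 17.2 CPM in control hearts 1 to 4 and at 61.7, 28.2 and 19.3 CPM in transferred hearts 1 to 3. The groups did not overlap, but transferred heart 3 lay only just above the controls. The SD of the control hearts, 1.14% of the mean, was below the counting error of a single library, 4.76% to 6.05%, so these 4 values cannot be told apart. The means were 17.1 ± 0.195 CPM (SD, n = 4) for control and 36.4 ± 22.4 CPM (SD, n = 3) for transferred hearts (log2 fold change 1.09, standard error 0.34, edgeR adjusted p = 0.255). The annotation lists a long noncoding RNA gene, Gm39839, on the other strand within Ifih1, and it was at 0 counts in all 7 libraries.

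Ddx58 (chromosome 4, 40203777 to 40239825) stood at 35.4, 34.3, 33.97 and 42.8 CPM in control hearts 1 to 4 and at 105.8, 54.3 and 40.4 CPM in transferred hearts 1 to 3. Transferred heart 3 fell between control hearts 1 and 4, so the groups overlapped. The means were 36.6 ± 4.19 CPM (SD, n = 4) and 66.8 ± 34.5 CPM (SD, n = 3), and the log2 fold change was 0.87 (standard error 0.30, edgeR adjusted p = 0.292). The amount of Ifih1 per length of exon was 0.342 to 0.425 of that of Ddx58 in control hearts and 0.406 to 0.496 in transferred hearts, so that the ratio of the helicases overlapped between the groups.

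Zbp1 (chromosome 2, 173206612 to 173218959), the sensor of Z-form nucleic acid, had the largest fold change of the 8. It was close to absent in control hearts, with 19, 44, 27 and 18 counts, or 0.924, 1.89, 1.04 and 1.14 CPM. Transferred hearts 1 to 3 held 540, 165 and 51 counts, or 27.4, 7.76 and 2.52 CPM. All 3 transferred hearts were above all 4 control hearts. The exact 95% Poisson interval of transferred heart 3, 1.88 to 3.31 CPM, still overlapped that of control heart 2, 1.38 to 2.54 CPM, and such intervals cover counting error only. The means were 1.25 ± 0.439 CPM (SD, n = 4) and 12.5 ± 13.1 CPM (SD, n = 3), where the SD of the transferred hearts exceeded their mean. The log2 fold change was 3.32 (standard error 0.75, edgeR adjusted p = 0.139).

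Ifi44 (chromosome 3, 151730922 to 151749910) stood at 11.2, 12.8, 14.3 and 12.9 CPM in control hearts 1 to 4 and at 73.5, 26.4 and 12.8 CPM in transferred hearts 1 to 3. Transferred heart 3 was level with the control mean, while transferred heart 1 was 5.75-fold above it. The means were 12.8 ± 1.27 CPM (SD, n = 4) and 37.6 ± 31.8 CPM (SD, n = 3), and the log2 fold change was 1.55 (standard error 0.53, edgeR adjusted p = 0.306).

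Samd9l (chromosome 6, 3372257 to 3399571) stood at 35.1, 30.3, 38.4 and 28.9 CPM in control hearts 1 to 4 and at 64.5, 48.1 and 40.0 CPM in transferred hearts 1 to 3, without overlap. Its log2 fold change was 0.61 (standard error 0.16, edgeR adjusted p = 0.163). Its deposited values had a fractional part in 3 of 7 libraries, as arises when a read is divided between places, and were rounded.

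The relatives Parp12 and Zc3hav1 lie on the same chromosome and differed in the size of their change. Parp12 (chromosome 6, 39086412 to 39118349) stood at 36.8, 40.0, 45.6 and 38.0 CPM in control hearts 1 to 4 and at 77.4, 50.8 and 48.9 CPM in transferred hearts 1 to 3. All transferred hearts were above all control hearts, and the log2 fold change was 0.56 (standard error 0.16, edgeR adjusted p = 0.190). Zc3hav1 (chromosome 6, 38305286 to 38355352) stood at 42.1, 51.3, 51.6 and 48.5 CPM in control hearts 1 to 4 and at 74.4, 57.9 and 49.95 CPM in transferred hearts 1 to 3. Transferred heart 3 lay inside the control range, and the log2 fold change was 0.33 (standard error 0.13, edgeR adjusted p = 0.355). The difference between the changes of Parp12 and Zc3hav1 was not tested.

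Samhd1 (chromosome 2, 157097534 to 157135096), the deoxynucleotide phosphohydrolase, was the most abundant of the 8. It stood at 70.9, 74.3, 72.1 and 78.6 CPM in control hearts 1 to 4 and at 113, 87.9 and 77.6 CPM in transferred hearts 1 to 3. Transferred heart 3 was just under control heart 4, and the log2 fold change was 0.33 (standard error 0.12, edgeR adjusted p = 0.295). The SD of Samhd1 was 4.56% of the mean in control hearts and 19.6% in transferred hearts. For the sensor Zbp1 these values were 35.2% and 104.3%, so that genes of the same group differed widely in how far the transferred hearts spread.

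**Figure D2:**
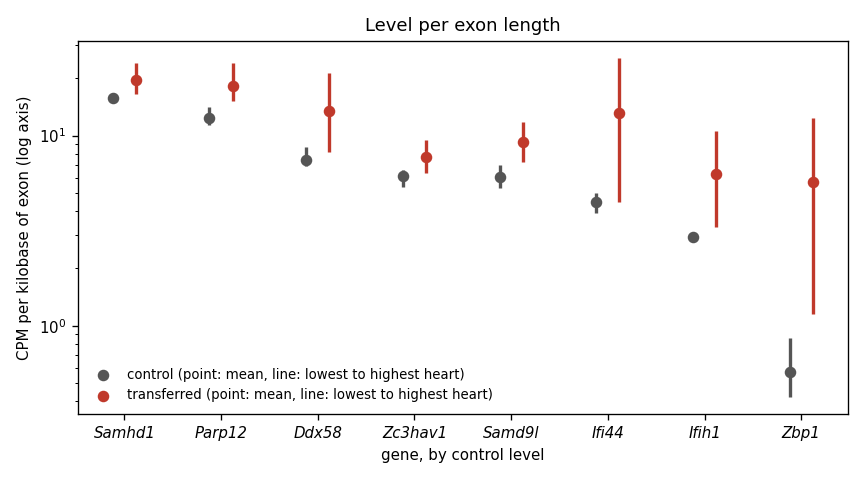
Level of each gene per kilobase of exon on a log axis, with the mean as a point and the lowest to highest heart as a line, for 4 control and 3 transferred hearts. In control hearts the levels run from 15.7 for Samhd1 to 0.567 for Zbp1, and in transferred hearts the ranges of neighbouring genes overlap.

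Per kilobase of exon, the order in control hearts was Samhd1 at 15.7, Parp12 at 12.4, Ddx58 at 7.41, Zc3hav1 at 6.16, Samd9l at 6.05, Ifi44 at 4.47, Ifih1 at 2.93 and Zbp1 at 0.567 CPM per kilobase (means, n = 4). Only Zc3hav1 and Samd9l overlapped among neighbours in that order. In transferred hearts the order was Samhd1 at 19.7, Parp12 at 18.3, Ddx58 at 13.5, Ifi44 at 13.1, Samd9l at 9.28, Zc3hav1 at 7.73, Ifih1 at 6.26 and Zbp1 at 5.70 CPM per kilobase (means, n = 3), and every pair of neighbours overlapped. The highest and lowest of these means thus lay closer together in transferred hearts. The gene with the lowest control level, Zbp1, had the largest fold change, and the gene with the highest, Samhd1, had one of the smallest. Since the control level enters both quantities, this is a description only.

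The transferred hearts did not resemble each other. In all 8 genes transferred heart 1 was above transferred heart 2 and transferred heart 2 above transferred heart 3, an order that 18.8% of all tested genes showed. All 8 genes were above every control heart in transferred heart 1, against 24.4% of all genes, and all 8 in transferred heart 2, against 26.1%. In transferred heart 3 only Ifih1, Zbp1, Samd9l and Parp12 were, 4 of the 8, against 25.3%. The median deviation of the 8 genes from the control mean was 1.25 in transferred heart 1, 0.56 in transferred heart 2 and 0.16 in transferred heart 3 on the log2 CPM scale. Over all tested genes these medians were -0.007, -0.003 and -0.001. The 4 genes that did not overlap between the groups compare with 5.99% of all genes with all transferred hearts higher.

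**Figure D3:**
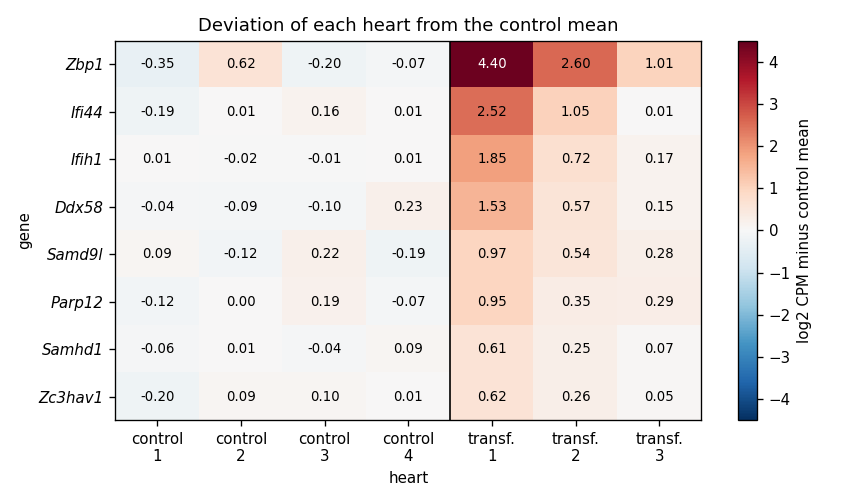
Log2 CPM of each gene (rows) in each heart (columns) minus the mean of the 4 control hearts. The colour fades from transferred heart 1, with 4.40 for Zbp1, to transferred heart 3, with 0.01 for Ifi44, in every row.

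Leaving out transferred heart 1 lowered the log2 fold change to 2.04 for Zbp1, 0.62 for Ifi44, 0.48 for Ifih1, 0.37 for Ddx58, 0.41 for Samd9l, 0.31 for Parp12 and 0.16 for both Samhd1 and Zc3hav1. Each value was still above 0, and 6 of the 8 kept an unadjusted p-value under 0.05, against 7.98% of all genes in that fit. Leaving out transferred heart 3 raised all 8, and Ifih1, Zbp1, Samd9l and Ifi44 then passed the threshold (edgeR adjusted p = 0.0369, 0.0141, 0.0486 and 0.0396), against 1.64% of genes higher in that fit. The remaining transferred hearts were then above all control hearts in 8 of the 8 genes, against 11.9% of all genes. Which heart was in the group therefore decided both the size of the change and the call.

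**Figure D4:**
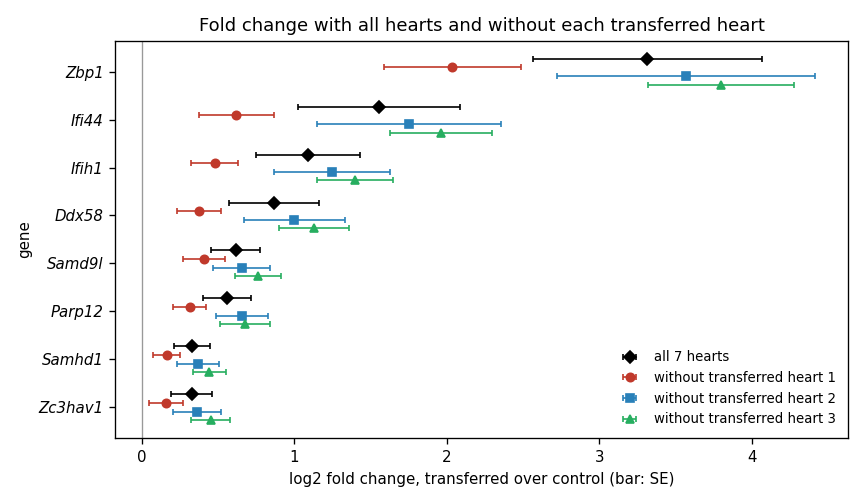
Log2 fold change of each gene (transferred over control, bar is the standard error) with all 7 hearts and without each transferred heart in turn. Without transferred heart 1 every value moves towards 0, to 2.04 for Zbp1, and without transferred heart 3 every value moves away from 0, to 3.80 for Zbp1.

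The source names of control heart 1 and transferred heart 1 begin with letters, and those of the other hearts are numbers, which the labels do not call a batch. Between the hearts whose names begin with letters, 1 of each group and so without a test, the log2 CPM difference was 4.75 for Zbp1, 2.71 for Ifi44, 1.84 for Ifih1, 1.58 for Ddx58, 1.07 for Parp12, 0.88 for Samd9l, 0.82 for Zc3hav1 and 0.67 for Samhd1. Among the hearts named by numbers, 3 control and 2 transferred, the log2 fold change was 1.93 for Zbp1, 0.57 for Ifi44, 0.49 for Ifih1, 0.44 for Samd9l, 0.36 for Ddx58, 0.28 for Parp12, 0.15 for Samhd1 and 0.10 for Zc3hav1. The direction was the same in both kinds for all 8 genes. Of the 8, Ifih1, Zbp1, Samd9l and Parp12 had an unadjusted p-value under 0.05 among the hearts named by numbers, against 7.16% of all genes, and 0 passed the adjusted threshold. With the kind of name as a covariate over all 7 hearts, the log2 fold change was 2.75 for Zbp1 and 0.89 for Ifih1, and the median over the 8 genes was 0.64. Control heart 1, which shares that kind of name, was below every other control heart in 5 of the 8 genes, against 25.3% of all tested genes, and above them in 0, against 25.3%. Whether the higher levels of transferred heart 1 go with its kind of name or with that heart alone cannot be told apart, because no other transferred heart is of its kind.

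The genes around these sensors came from 5 lists with 140 genes, of which 67 were in the analysed part of the table and 48 were tested. Of the 48, 25 had an unadjusted p-value under 0.05 and were higher, 0 were lower, and 1, Oas2, passed the adjusted threshold of the edgeR test. Over all tested genes, 7.17% were higher at that unadjusted level, a share that stands beside the counts of each list below. Of 19 genes listed for RIG-I-like receptor signalling, 8 were in the analysed part. Dhx58, Trim25, Ddx60 and Nlrc5 were among those outside it. Of the 8, all tested, 2 were higher at an unadjusted p-value under 0.05 and the median log2 fold change was 0.07. One was Ikbke, a kinase upstream of IRF3 and IRF7, at 0.97 (edgeR adjusted p = 0.229). The other was Irf7, the inducible transcription factor of the pathway, which stood at 22.6, 24.1, 25.95 and 24.3 CPM in control hearts 1 to 4 and at 931.5, 119.1 and 27.3 CPM in transferred hearts 1 to 3 (log2 fold change 3.89, edgeR adjusted p = 0.253). For Irf3, its constitutive relative, that value was 0.16 (edgeR adjusted p = 0.669). Mavs, the adaptor that both helicases use and which is named here outside the rule for genes, stood at 233.6 to 308.6 CPM in control hearts and 231.8 to 277.5 CPM in transferred hearts (log2 fold change -0.11, edgeR adjusted p = 0.725).

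Among the other genes of nucleic acid sensing and turnover, 2 of 5 tested genes were higher at an unadjusted p-value under 0.05. One of them, Adar, which edits double-stranded RNA so that MDA5 does not sense it, stood at 42.6 to 55.7 CPM in control hearts and at 110.8, 56.3 and 55.8 CPM in transferred hearts 1 to 3, with the same emphasis on transferred heart 1. Dhx9, an RNA helicase, had a log2 value of 0.16 for transferred over control (edgeR adjusted p = 0.492).

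Transcripts of the mouse interferon genes in the analysed part were at or near 0. Of 18 interferon genes in the analysed part, 17, among them Ifnb1, were at 0 counts in all 7 libraries, which allows up to 0.115 to 0.189 CPM per library. Ifnz held 2 counts in all, over the transferred hearts. The gene of interferon gamma, Ifng, was not in the analysed part, so its level is not known here. Transcripts of interferon genes from the transferred human cells were not examined. Of the 5 tested genes of receptors and signal transduction, Irf5 and Usp18 had an unadjusted p-value under 0.05, with log2 fold changes of 0.61 and 2.29 (edgeR adjusted p = 0.178 and 0.301).

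In the list of other interferon-stimulated antiviral genes, 19 of 26 tested genes were higher at an unadjusted p-value under 0.05 and the median log2 fold change was 0.81. The smallest p-values were those of Oas2, Oas3 and Herc6. Oas2 and Oas3 encode synthetases of oligoadenylate and Herc6 a ligase that attaches ISG15. Oas3 was near the floor of 3 counts in control hearts, at 0.129 to 0.379 CPM, and stood at 7.19, 2.40 and 1.04 CPM in transferred hearts 1 to 3. Herc6 (log2 fold change 0.89, edgeR adjusted p = 0.0792) stood at 7.72 to 9.84 CPM in control hearts and at 21.9, 14.7 and 13.5 CPM in transferred hearts 1 to 3. Other PARP genes in the analysed part, 4 of 15 listed, gave a contrast in values to Parp12 and Zc3hav1. Parp9, Parp10 and Parp14 were among the listed genes outside that part, so the contrast does not cover them. Of 4 tested, 0 had an unadjusted p-value under 0.05 in the edgeR test, and their median log2 fold change was 0.12. It was 0.14 for Tiparp, 0.19 for Parp11, 0.10 for Zc3hav1l and -0.02 for Parp1, which is named outside the rule. The difference between these lists was not tested.

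**Figure D5:**
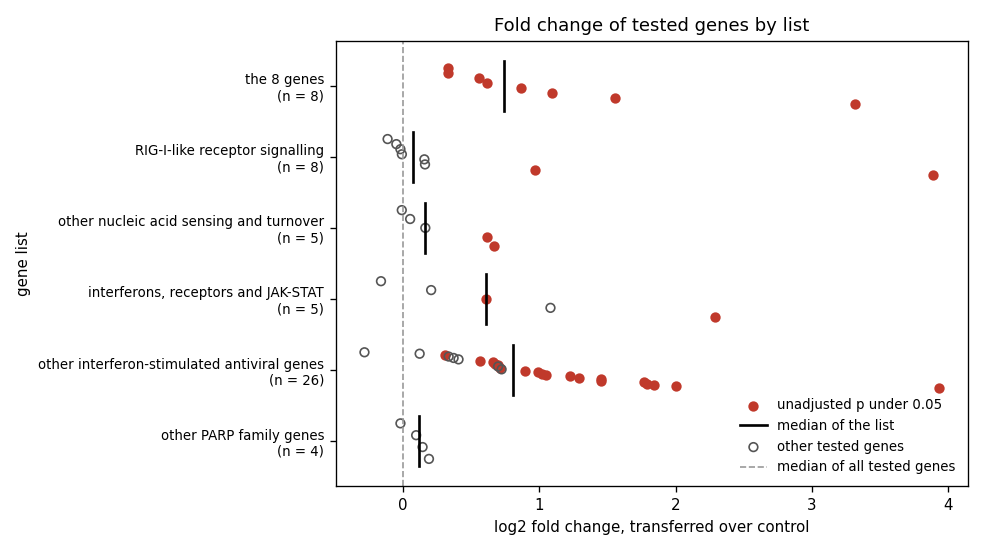
Log2 fold change (transferred over control) of the tested genes of each list, with the median of the list as a black bar and the median of all tested genes as a dashed line. The 8 antiviral genes and 25 of the 26 other interferon-stimulated genes lie above 0, with list medians of 0.74 and 0.81. Trim12a lies at -0.28. Most of the 8 tested genes of RIG-I-like receptor signalling, from 19 listed, lie near 0, with a median of 0.07.

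For each of the 8 genes, the genes with the most similar profile were found by the root-mean-square difference, over the 7 hearts, of log2 CPM centred on the control mean, among 7003 other genes with a mean of at least 1 CPM. Among the genes nearest to Ifih1 were B2m (0.15) and Ddx58 (0.16). The median over all genes compared with Ifih1 was 0.77. Ifi44 was closest to Gbp3 (0.08), Oasl2 (0.17) and B2m (0.24), against a median of 1.05. Ddx58 was closest to Gm8989 (0.13), Gvin1 (0.13) and Gm4070 (0.14), which all lie on chromosome 7, against a median of 0.66. Parp12 was closest to Gbp9 (0.11), Trim21 (0.11) and Dck (0.12), and Samd9l to Gbp9 (0.12), Parp12 (0.13) and Gm13212 (0.13), against medians of 0.45 and 0.48.

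Zbp1 was closest to Plac8 (0.42), Irf7 (0.54) and Oas3 (0.62), against a median of 2.0. Oas3 was near the floor in control hearts and reached the mean of 1 CPM needed here only through the transferred hearts. Plac8 differed from Zbp1 in that transferred hearts 1 and 2 were nearly level, at 3.63 and 3.35 above the control mean on the log2 scale, where Zbp1 stood at 4.40 and 2.60. The 2 genes with the smallest changes were each among the nearest of the other. Zc3hav1 was closest to Gm13244 (0.08), Nmi (0.08) and Samhd1 (0.08), and Samhd1 to the ribosomal protein gene Rpl12 (0.08), Zc3hav1 (0.08) and the pseudogene Rpl13-ps6 (0.09), against medians of 0.33 and 0.31. Small changes make small differences from many genes, so these last values distinguish little.

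Markers of macrophages also differed between the groups. All 11 that were tested were higher at an unadjusted p-value under 0.05, against 7.17% of all tested genes. C1qb and Mrc1, 2 of the 11, passed the adjusted threshold of the edgeR test. The summed level of the 11 was 458.7 to 681.0 CPM in control hearts and 1071, 1197 and 825.6 CPM in transferred hearts 1 to 3. Of the 11, 7 were highest in transferred heart 2 and 3 (Fcer1g, C1qa and Fcgr1) in transferred heart 1. In transferred hearts 1 to 3, 11, 11 and 10 of the 11 were above every control heart, against 24.4%, 26.1% and 25.3% of all tested genes. All 8 antiviral genes were highest in transferred heart 1. Neutrophil markers summed to 13.1 to 39.1 CPM in control hearts and to 22.1, 309.7 and 52.9 CPM in transferred hearts 1 to 3. Lcn2 alone gave 27.3 CPM of the highest control sum, that of control heart 1. Of the 6 tested markers, 5 were higher at an unadjusted p-value under 0.05, against 7.17% of all tested genes. Of the 6, 0 passed the adjusted threshold of the edgeR test, and the median log2 fold change was 2.73. In transferred hearts 1 to 3, 2, 6 and 5 of the 6 were above every control heart, the 2 being Cxcr2 and S100a8. Endothelial markers summed to 2449 to 2660 CPM in control hearts and 2363 to 2688 CPM in transferred hearts, and fibroblast markers to 1228 to 1684 CPM and 1089 to 1472 CPM. Of the 6 endothelial markers tested, Tie1 was lower at an unadjusted p-value under 0.05, without overlap of the groups (log2 value -0.28, edgeR adjusted p = 0.185), Emcn was higher at that level (log2 value 0.26, edgeR adjusted p = 0.350), and the other 4 had p-values above it. Of the 3 fibroblast markers tested, 0 had an unadjusted p-value under 0.05 in the edgeR test. The part of macrophages and neutrophils in the levels of the 8 genes was not tested.

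T and natural killer cell markers of the mouse summed to 29.9 to 38.3 CPM in control hearts and 28.5 to 36.03 CPM in transferred hearts, with Trbc1, Trbc2, Ncr1 and Klrb1c at 0 counts in all 7 libraries. Most of these sums came from Cd28 alone, at 23.1 to 31.4 CPM in control hearts and 21.9 to 29.3 CPM in transferred hearts. Of the 3 tested, Cd247, a signalling chain of the T cell receptor, was lower at an unadjusted p-value under 0.05 (log2 value -1.06 for transferred over control, edgeR adjusted p = 0.278), and its groups overlapped. B cell markers summed to at most 0.146 CPM in any heart. The transferred cells were human, and whether reads from their genes were counted on the 8 mouse genes was not tested.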

How the data were processed

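RNA was purified with a column kit from tissue held in a stabilising solution, per the labels' protocols. The submitters' processing notes name bcl2fastq 2.20.0.422, cutadapt 2.5, STAR 2.7.2b, featureCounts 1.6.4, DESeq2 1.22.2 and build GRCm38.p6, and their settings are not given in the sources used here. The authors deposited estimated counts per gene, not normalized, of which 4.63% had a fractional part. These were rounded. The authors' table also gives the combined exon length, used for levels per kilobase. One unfinished row was left out, and genes beyond the start of chromosome 8 are not analysed here.

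Genes were filtered with filterByExpr, scaled by TMM and tested with the robust quasi-likelihood test of edgeR 4.0.16 in R 4.3.3, transferred against control, with Benjamini-Hochberg adjustment over 7667 genes. Standard errors were computed from the F statistic. Log2 CPM used a prior count of 2. The procedure was tested on simulated counts. Strandedness of counting is not given in the sources used here.

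Genes, lists and tests were chosen with earlier results of these data known. Named were the 8 genes, the 3 tested genes of each list with the smallest p-value, and the 3 genes with the most similar profile to each of the 8. Some results are not reported here. The alternatives were RLE, upper-quartile and total scaling, 2 other filters, DESeq2 1.42.0, limma-voom (limma 3.58.1), a fit without robust estimation, unrounded counts, the kind of animal identifier as a covariate or its letter-named hearts left out, and each heart left out in turn.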

Additional observations from a re-analysis of the deposited data

How the results depend on the processing

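Each of the 8 genes stayed higher in transferred hearts in all 18 alternatives. Of the 8 genes, 0 passed the adjusted threshold in edgeR, and 5 did with DESeq2. The fits that each left out 1 heart gave from 0 to 4 genes, the 4 without transferred heart 3. At an unadjusted p-value under 0.05 the 8 genes became 4 without the hearts whose identifiers begin with letters, and from 6 to 8 when 1 heart was left out. The median log2 fold change of 0.74 lay between 0.39 and 0.95 over the alternatives, the lowest without transferred heart 1. The 4 genes whose groups did not overlap became 8 without transferred heart 3 and were 4 to 6 in the other fits. In the neighbouring lists, the 1 gene past the threshold became 2 with total scaling, 3 with all genes of at least 1 count and 10 with DESeq2. It became 0 with limma-voom, with the identifier covariate and without the letter-named hearts, and from 0 to 14 when 1 heart was left out, the 14 without transferred heart 3. The cause was not tested. No paired analysis was possible because the heart numbers in the titles share only 1 value between the groups. Depth limits Zbp1 most, with 18 to 44 counts in control hearts.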
